A study of Homo sapiens with 3 samples.

Results

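RNU12 and RNU4ATAC are the genes of U12 and U4atac, small nuclear RNAs of the minor spliceosome. Their members here are all windows of 50 nt that the deposited table lists under either symbol. There were 3 windows for RNU12 and 1 for RNU4ATAC, 4 of 58 snRNA windows and of 1533 windows in all. The table came from CLIP-seq, in which UV light fixes a protein to its RNA and the RNA fragments that come down with the protein are sequenced. All 3 libraries belonged to 1 group, HEK293 cells that overexpress the D391N mutant of DIS3L2. The labels give the line as HEK293, human embryonic kidney cells. The study's methods name it more closely as HEK293T-Rex, a stable line with an inducible transgene that carried a C-terminal 3xFlag tag. D391N removes the catalytic activity of DIS3L2, so the protein binds RNA without digesting it. No library of wild-type DIS3L2 and no control library is among the samples used here. The counts were summed by the authors over the 3 libraries, so no spread between replicates can be given.

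The minor spliceosome removes a rare class of introns. U12 pairs with the branch site of these introns, U11 recognizes their 5′ splice site, and U4atac enters paired with U6atac, which it holds until activation. U11, U12 and U4atac are made by RNA polymerase II as precursors that reach past the mature 3′ end, which are cut by the Integrator complex, receive a ring of Sm proteins in the cytoplasm and are trimmed. DIS3L2 is a cytoplasmic 3′-to-5′ exonuclease that prefers RNA ending in a run of uridines, the oligo(U) tail that terminal uridylyltransferases add. A read was uridylated, U+, when it ended in at least 4 T that the genome does not encode, and the U+ fraction of a window is its U+ reads as a share of its unique reads.

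The label of snRNA covered different RNA in the 4 windows. Mature U12 was placed on the plus strand of chromosome 22, chr22:43011250-43011399 in GRCh37/hg19, from the start of the annotated RNU12 transcript and the RefSeq length of 150 nt. The first RNU12 window, chr22:43011250-43011299, held its first 50 nt. The other two RNU12 windows, chr22:43011550-43011599 and chr22:43011600-43011649, held 0 nt of mature U12. They began 151 nt and 201 nt past its 3′ end, at bases 301 and 351 counted from mature base 1. The table names ENST00000362512 for the first window and ENST00000602478 for the other two. GENCODE release 44, mapped to GRCh37, holds the second of these as an unspliced non-coding RNA of 664 nt that ends at chr22:43011913. Its start is the one taken above as mature base 1. The RNU4ATAC window, chr2:122288450-122288499 on the plus strand, held the first 43 nt of U4atac (chr2:122288457-122288583, 127 nt, exonic) after 7 upstream bases. RefSeq gives 130 nt for this RNA, so its ends are uncertain by up to 3 nt.

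The sequences below show which bases each window covered, since 2 windows lie in mature RNA and 2 in a stretch downstream of it. Capitals mark the bases inside a listed window, and lower case marks bases outside the listed windows, for which no read counts were used here. All are plus-strand GRCh37 sequence, written with T. RNU11 is shown because it is the other minor spliceosomal snRNA with a listed window.

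RNU12, mature bases 1 to 150: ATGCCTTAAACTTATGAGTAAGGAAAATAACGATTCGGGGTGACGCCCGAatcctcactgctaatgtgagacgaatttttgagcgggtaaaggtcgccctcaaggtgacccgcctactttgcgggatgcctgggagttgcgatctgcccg

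RNU12 downstream stretch, chr22:43011400-43011649: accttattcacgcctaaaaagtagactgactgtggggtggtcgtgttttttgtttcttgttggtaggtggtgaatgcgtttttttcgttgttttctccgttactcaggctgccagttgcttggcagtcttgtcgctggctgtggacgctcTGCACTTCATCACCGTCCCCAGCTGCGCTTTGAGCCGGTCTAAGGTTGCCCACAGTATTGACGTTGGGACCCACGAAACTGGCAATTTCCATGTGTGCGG

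RNU4ATAC, chr2:122288457-122288583: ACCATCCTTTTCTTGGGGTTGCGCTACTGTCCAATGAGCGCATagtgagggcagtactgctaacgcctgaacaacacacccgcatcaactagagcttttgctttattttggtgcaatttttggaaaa

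RNU11, chr1:28975112-28975242: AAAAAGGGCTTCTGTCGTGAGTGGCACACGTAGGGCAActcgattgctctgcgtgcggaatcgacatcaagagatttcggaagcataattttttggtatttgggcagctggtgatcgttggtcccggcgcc

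The U12 window holds TAAGGAA, the stretch that pairs with the branch site, at mature bases 19 to 25. The Sm site AATTTTTG, where the Sm ring binds, was found at bases 74 to 81 of U12 and at bases 115 to 122 of U4atac. Both Sm sites and both mature 3′ ends therefore lie outside the listed windows. The 5 window positions between the first and second RNU12 windows, from base 51 up to the downstream pair, were not listed.

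Over the listed windows, U12 was the more deeply read of the genes. Its 5′ window had 1858 unique reads, of which 1250 were uridylated, a U+ fraction of 67.3% (95% Wilson interval 65.1% to 69.4%). The first window past the 3′ end had more unique reads and fewer U+ reads. It had 3063 unique reads with 856 uridylated, 27.9% (26.4% to 29.6%). The second window past the 3′ end had 358 unique reads with 169 uridylated, 47.2% (42.1% to 52.4%). U4atac had 437 unique reads in its window, 154 of them uridylated, 35.2% (30.9% to 39.8%). The paper's appendix sums U+ reads per snRNA over regions that reach past the mature 3′ end, and there U4atac is much closer to U12. The listed window thus does not stand for all U+ reads of U4atac. The intervals of these 4 windows did not overlap one another. Counting error is all that they cover: copies of a fragment made by PCR are not independent, and differences between libraries are lost in the sum.

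**Figure D1:**
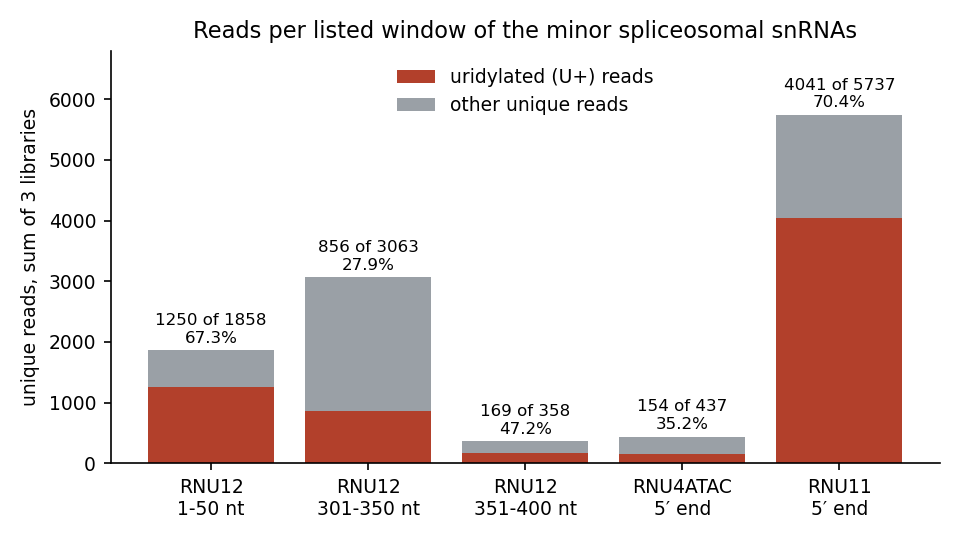
Stacked bars give the uridylated reads (red) and other unique reads (grey) of the RNU12 windows, named by their bases from mature base 1, of the RNU4ATAC window and of the RNU11 window, each summed over 3 libraries (y axis, reads). The RNU12 window at bases 301 to 350 is taller than that at bases 1 to 50 (3063 against 1858 reads), while its red part is smaller (856 against 1250).

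Along RNU12, unique and U+ reads were thus ordered differently. The first window past the 3′ end had 1.65 times the unique reads of the 5′ window, and the 5′ window had 1.46 times the U+ reads of the first downstream one. Unique reads not counted as U+, which may carry a tail too short for the call, numbered 608 in the 5′ window, 2207 in the first downstream window and 189 in the second. The unique reads of the first downstream window exceeded those of the second 8.56-fold. Over its 3 windows RNU12 had 2275 U+ reads, or 2106 if every U+ read of the smaller downstream window was also counted in the larger. The table gives no read ends, so where on the RNA a tail was added cannot be told from these counts. The paper sequenced clones of snRNAs, U12 among them, that came down with D391N. It reports tails on the 3′-extended forms, while mature and partly trimmed forms mostly had none. It also reports more 3′-extended U12 in cells without DIS3L2. With the 154 U+ reads of RNU4ATAC, the 4 windows held 2.44% of the U+ reads of all snRNA windows. The share was 2.27% if the smaller downstream window was wholly shared. Most of the total lay in 1 window of RNU2-2P, with 73651 of the 99706 snRNA U+ reads.

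**Figure D2:**
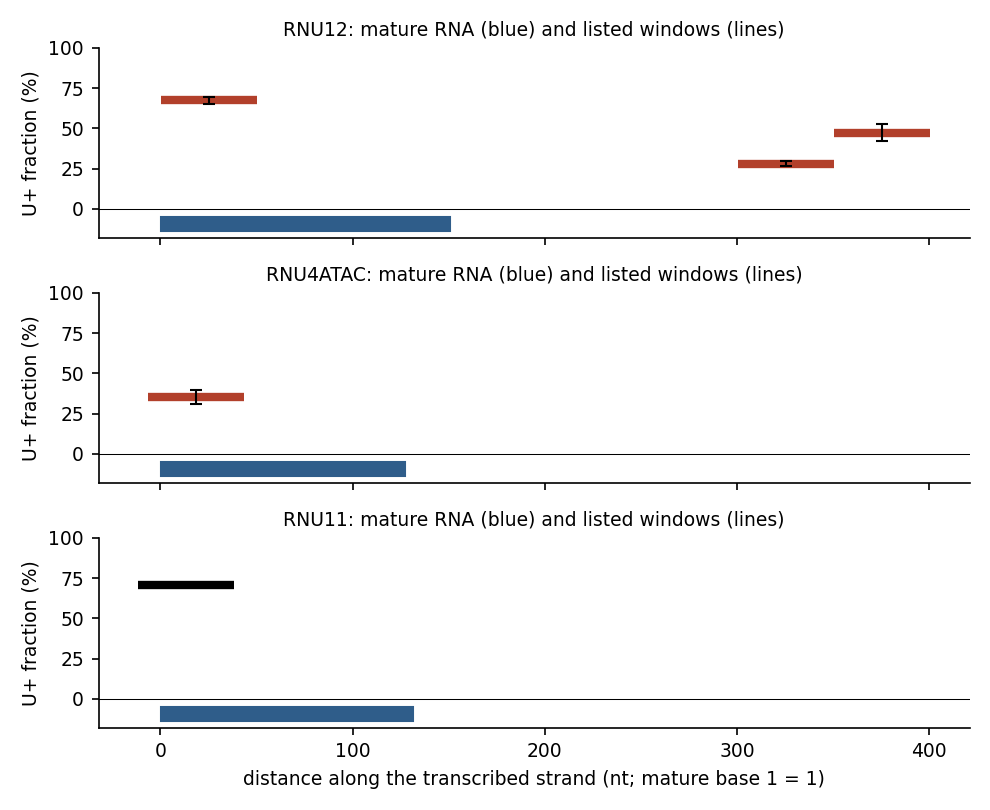
Each panel sets the mature RNA (blue bar) and the listed windows (horizontal lines at their U+ fraction in percent, with 95% Wilson intervals) on an axis of distance from mature base 1 in nt. The windows of RNU4ATAC and RNU11 and 1 of the 3 RNU12 windows begin at or just before base 1, and the remaining RNU12 windows, at 27.9% and 47.2%, lie past the end of the blue bar.

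RNU11, whose RNA sits beside U12 in the same particle, had 1 window, chr1:28975100-28975149, with 4041 U+ reads of 5737 unique reads, 70.4% (69.2% to 71.6%). It held the first 38 nt of U11 as annotated (131 nt), while RefSeq gives 135 nt, so its ends are uncertain by up to 4 nt. U11, U12 and U4atac thus each had a window over the mature 5′ end, at 70.4%, 67.3% and 35.2%. For RNU6ATAC, whose RNA pairs with U4atac, there was no window among those used here.

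Pairs of windows were compared by Fisher's exact test, two-sided, on U+ and other reads, with Benjamini-Hochberg adjustment over the 9 pairs tested. This compares pooled reads, not conditions or cell cultures. The test takes every read as independent, so its p-values do not cover PCR copies or differences between libraries. All 9 pairs had an adjusted p under 0.05. The U12 5′ window exceeded the U4atac window by 32.0 percentage points (Newcombe interval 27.0 to 36.8, Fisher's exact test, adjusted p = 6.82e-34). Within RNU12, the 5′ window exceeded the first downstream window by 39.3 points (36.6 to 41.9, exact test, adjusted p = 3.81e-162). It exceeded the second downstream window by 20.1 points (14.5 to 25.6, exact test, adjusted p = 1.90e-12). The downstream windows adjoin and can share reads, so their difference of 19.3 points (13.9 to 24.7) has no p.

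U4atac lay between the downstream windows of RNU12. It exceeded the first by 7.29 points (2.67 to 12.1, exact test, adjusted p = 0.00214). The second exceeded it by 11.97 points (5.09 to 18.7, exact test, adjusted p = 0.000844). This last difference changes sign if the adjoining windows are joined into 1, as given in the closing section. The smallest difference was that between U11 and the U12 5′ window. U11 was 3.16 points higher (0.749 to 5.62, exact test, adjusted p = 0.0106), with an odds ratio of 1.16. U11 was 35.2 points above U4atac (30.5 to 39.7, exact test, adjusted p = 1.48e-47).

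**Figure D3:**
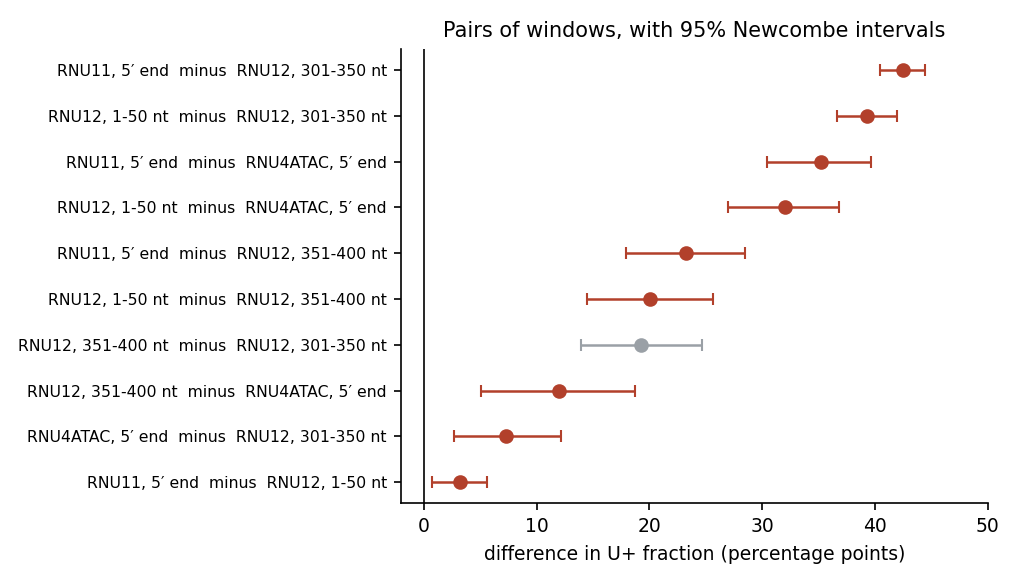
Points give the difference in U+ fraction of each pair of windows in percentage points (x axis), first named minus second named, with 95% Newcombe intervals, and the grey pair adjoins and was not tested. The differences run from 3.16 points for RNU11 minus the RNU12 window at bases 1 to 50 up to 42.5 points for RNU11 minus the RNU12 window at bases 301 to 350.

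The 4 windows were set beside the 22 other snRNA windows outside U6 genes, which come from 21 genes and of which 18 carry a pseudogene symbol. Among those 22, the median U+ fraction was 49.6%, with quartiles of 38.6% and 75.7%, and the median depth was 250.5 unique reads. The U12 5′ window was above 13 of the 22. The second downstream window was above 8, and the first downstream window and U4atac were each above 5. In depth the order differed. Only 3 of the 22 had more unique reads than the first downstream window of RNU12, namely RNU11, RNU5B-1 and the deeper of the windows of RNU2-2P. The 5′ window had 5 above it, U4atac 7 and the second downstream window 8. In U+ reads, 3 of the 22 exceeded the U12 5′ window, 4 the first downstream window, and 12 each of the remaining members.

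**Figure D4:**
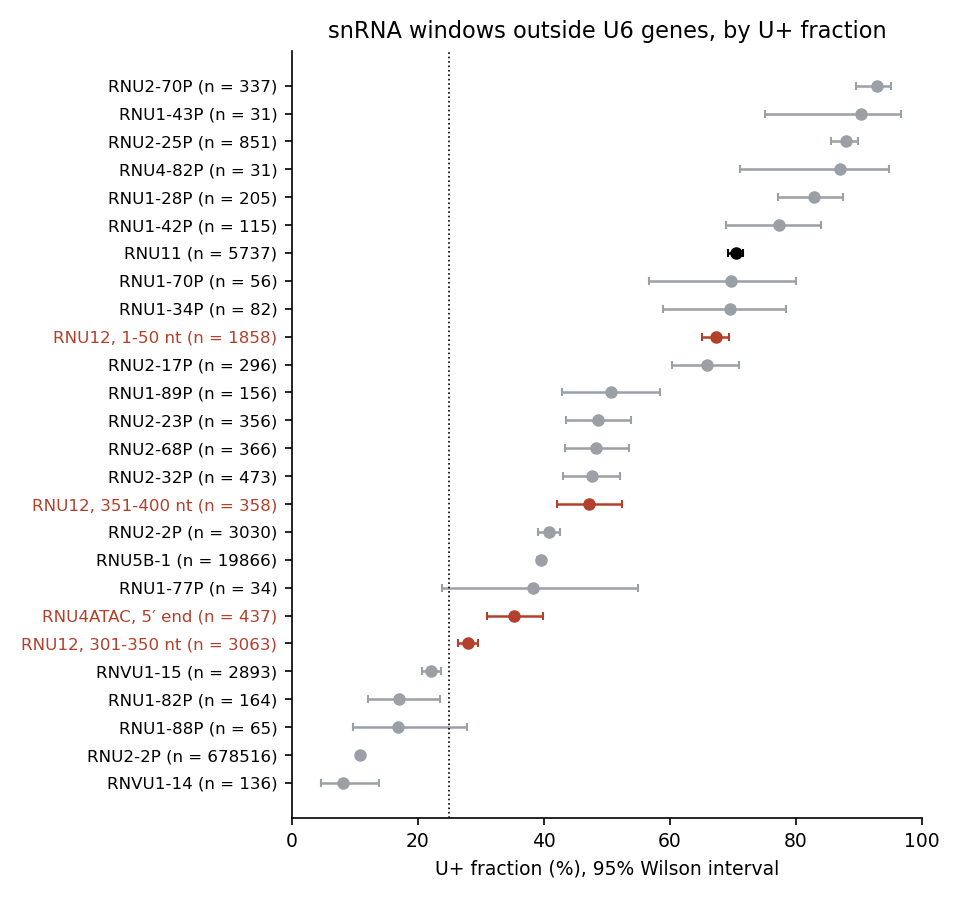
The 26 snRNA windows outside U6 genes are ordered by U+ fraction (x axis, percent, with 95% Wilson intervals, n being unique reads), with RNU12 and RNU4ATAC in red, RNU11 in black and a dotted line at 25%. The red points sit at 27.9%, 35.2%, 47.2% and 67.3%, inside the range of 8.09% to 92.9% set by RNVU1-14 and RNU2-70P.

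Near neighbours in U+ fraction were mostly pseudogenes of U1 and U2, the major spliceosome's RNAs for the 5′ splice site and branch site. The U12 5′ window stood between RNU2-17P, with 195 U+ of 296 reads (65.9%), and RNU1-34P, with 57 of 82 (69.5%). It differed from them by 1.40 points (interval -4.20 to 7.35) and by -2.24 points (-11.4 to 8.62), and both intervals include 0. The second downstream window was nearest to RNU2-32P, with 225 of 473 reads (47.6%), and RNU2-68P, with 177 of 366 (48.4%). U4atac was nearest to RNU1-77P, with 13 of 34 reads (38.2%), and to RNU5B-1, a gene for the major spliceosome's U5, with 7855 of 19866 (39.5%). The interval of its difference from RNU5B-1 was -8.69 to 0.340 points. The first downstream window was nearest to RNVU1-15, a variant U1 gene, with 639 of 2893 reads (22.1%), and exceeded it by 5.86 points (3.66 to 8.05). Its next neighbour was RNU1-77P, from which it differed by -10.3 points (-27.1 to 4.14).

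Windows of like depth did not always have like U+ fractions. Nearest in unique reads to both larger RNU12 windows were RNVU1-15 and a window of RNU2-2P with 1236 U+ of 3030 reads (40.8%). The U12 5′ window exceeded them by 45.2 points (42.5 to 47.8) and 26.5 points (23.7 to 29.2). The first downstream window minus RNU2-2P, in contrast, was -12.8 points (-15.2 to -10.5), and minus RNVU1-15 it was 5.86 points (3.66 to 8.05). U4atac was below both of its neighbours in depth, with differences of -12.3 points from RNU2-32P (-18.6 to -5.93) and -13.1 points from RNU2-68P (-19.8 to -6.28). The second downstream window was close to both of its neighbours in depth. It differed by -1.39 points (-8.67 to 5.91) from RNU2-23P, which had 173 of 356 reads (48.6%). From RNU2-68P it differed by -1.15 points (-8.38 to 6.09).

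Over the whole table the median U+ fraction was 70.2% and the median depth 73 unique reads. All 4 windows were deeper than that median. The first downstream window of RNU12 had more unique reads than all but 48 of the 1529 windows outside these genes, and the U12 5′ window than all but 68. In U+ fraction all 4 were below the median, the U12 5′ window close to it and the others under the lower quartile of 56.6%. Of those 1529 windows, 43.6% were below the U12 5′ window, 13.0% below the second downstream window, 4.97% below U4atac and 2.88% below the first downstream window.

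**Figure D5:**
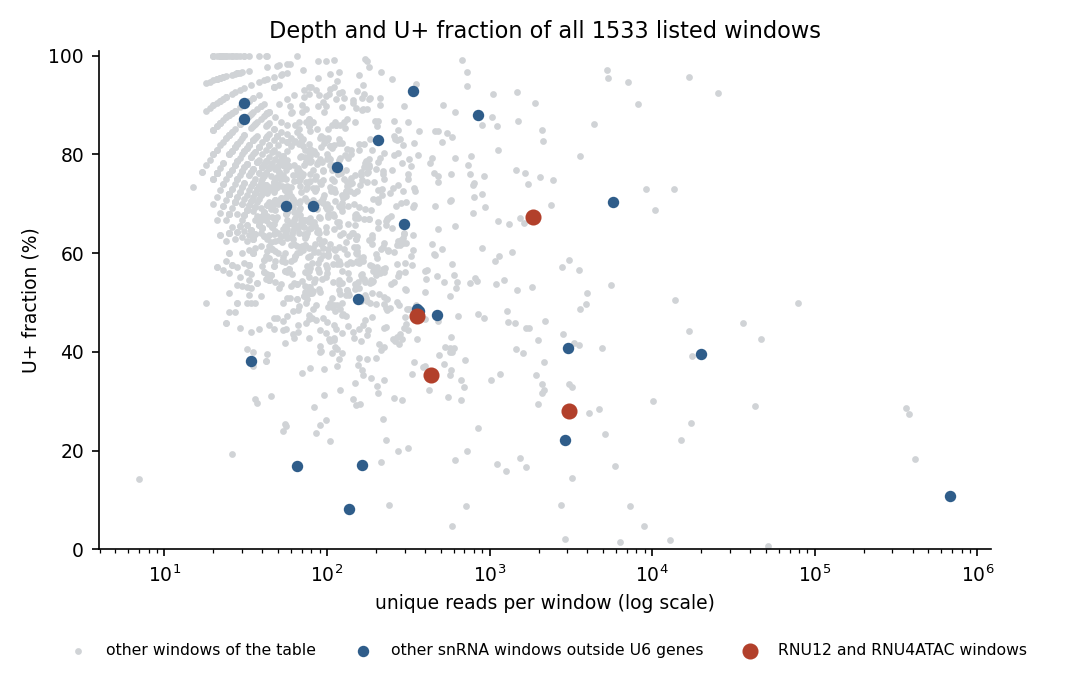
Each point is 1 of the 1533 listed windows, with unique reads on a log axis (x) and U+ fraction in percent (y); RNU12 and RNU4ATAC are red and other snRNA windows outside U6 genes blue. The red points lie right of the median depth of 73 reads and below the median U+ fraction of 70.2%.

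The study's methods describe selecting windows by a high posterior probability of a uridylation frequency over 0.25 in the libraries, so a U+ fraction above that value is no finding. The summed counts do not meet that rule in every listed window. With a uniform prior and the summed counts, that probability was at least 0.95 in 4 of 4 windows, against 96.8% of all windows. It was under 0.95 in 49 listed windows, 5 of them among the 22 other snRNA windows. Among the 4 windows of RNU12 and RNU4ATAC, the lowest probability was that of the first downstream window, 0.9999. For a frequency over 0.5, 71.6% of all windows passed. Of the 4, only the U12 5′ window passed, and among the 22 other snRNA windows 10 passed. The probability of a frequency over 0.5 was 0.146 for the second downstream window, 2.67e-10 for U4atac and 2.01e-136 for the first downstream window.

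The places of the listed windows on the annotated RNA were also set beside those of the remaining snRNA windows outside U6 genes. Of the 4 windows of RNU12 and RNU4ATAC, 2 held mature base 1, or 1 with starts read as 0-based. Of the 22 other windows, 15 lay in the body of the annotated RNA, 6 held its 3′ end and 1, that of RNU11, held its 5′ end. None of those 22 lay wholly past the 3′ end, where 2 of the 3 RNU12 windows lay. Those RNU12 windows are listed under the annotated transcript of 664 nt, while the other 22 were placed on shorter annotated transcripts. A window wholly past a shorter transcript may not carry its gene's name, so this count does not set RNU12 apart. The paper's appendix shows U+ coverage past the mature 3′ end for U12 itself and for U11, RNU4ATAC, RNU5B-1, RNU2-2P and other snRNAs. The counts here are over few genes, and no test was made. The annotated end of a pseudogene is that of its match to the snRNA, which is not a measured end.

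The gene neighbourhoods differ. On the strand of RNU12, the annotation holds only the RNU12 gene itself, as the non-coding RNA of 664 nt, over these windows. On the opposite strand, a protein-coding gene named only by its identifier (ENSG00000289517, chr22:42979842-43023694) runs across all of them. POLDIP3 ends at chr22:43010968 and CYB5R3 begins at chr22:43011736, both also on the opposite strand and outside the windows. The nearest other listed window on chromosome 22 was 1233251 nt away, in TEF. RNU4ATAC lies within the long non-coding RNA CLASP1-AS1 on its own strand (chr2:122287998-122290281) and opposite the protein-coding gene CLASP1 (chr2:122095352-122407052), to which it is antisense. The nearest other listed window on chromosome 2, 72151 nt away on the minus strand, was a Y RNA with 421 U+ of 510 reads (82.5%). CLASP1-AS1 and U4atac share a strand, so reads from them cannot be told apart in this window. The same holds for mature U12 and the non-coding RNA of 664 nt in the U12 5′ window.

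In base composition, the windows over U12 and U4atac were alike, each with 44% G and C. The downstream windows had 60% and 52%, against a median of 48% in the other 22 snRNA windows and 72% in the whole table. No T run of 4 or more is encoded in the 3 RNU12 windows. Of the 11 unlisted window positions along the RNU12 transcript, 5 hold such a run, the longest of 7 T. The U4atac window holds 1 run of 4 T. Such runs occur in 18.2% of the other 22 windows and 8.61% of all windows. RNase T1, which made the fragments, cuts after G. The windows hold 13, 12 and 14 G in RNU12 and 10 in RNU4ATAC, against a median of 11.5 in the other 22.

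TAAGGAA was found in the U12 5′ window and in 2 other windows, a serine tRNA and an mRNA window of TRA2B, so that 3 windows, 0.196% of the table, hold it on either strand. AATTTTTG was in 0 of the 1533 windows on either strand. Folded alone by RNAfold, the U4atac window had a minimum free energy of -12.8 kcal/mol and the U12 5′ window -11.7. The downstream windows had -8.50 and -7.60 kcal/mol. The median was -9.20 in the other 22 and -17.3 in the table. Folded whole, mature U12 gave -0.389 kcal/mol per nt, U11 -0.362, U4atac -0.294 and the downstream stretch of 250 nt -0.276. These are predictions for naked RNA of different lengths, and the place of the short windows changes with flanking sequence.

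Reads were kept only where they mapped to 1 place, so copies elsewhere bear on the counts. No window of RNU12 or RNU4ATAC had a near-identical copy elsewhere in GRCh37, defined as 45 nt or more with no more than 2 differences, whereas 11 of the other 22 had one. The closest other match of the U4atac window covered 40 nt with 1 difference, and 12 places matched at least 40 nt at 80% identity. For the U12 5′ window 1 place did so, and for the downstream windows 0. RefSeq lists 17 pseudogenes of RNU4ATAC and 1 of RNU12. How many U4atac reads were dropped for matching several places was not tested.

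Genes that make, assemble or work with these RNAs were looked up in the table by role. Of 62 protein genes on 6 lists, 3 had a listed window, a share near that of all annotated protein-coding genes, of which 4.61% had an mRNA window. On the list of minor spliceosome proteins 1 of 11 had one. This was ARMC7, with 25 U+ of 29 reads (86.2%, interval 69.4% to 94.5%). On the list of snRNA transcription and 3′ end cleavage 2 of 19 had one, both subunits of Integrator. INTS5 had windows with 95 of 131 reads (72.5%) and 26 of 41 reads (63.4%). INTS10 had 19 of 27 (70.4%). None of the 7 Sm core proteins, the 6 proteins of the U4/U6 and U4atac/U6atac particles, the 15 genes of snRNA export, trimming and assembly, or the 4 genes of uridylation and decay had a window. A list with no window says only that no window of it is in the table used here.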

How the data were processed

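The 3 CLIP libraries, from HEK293 cells (HEK293T-Rex in the study's methods) with overexpressed DIS3L2 D391N, form 1 group by GEO's labels. RNA was cut with RNase T1 and size-selected. The authors mapped reads to GRCh37/hg19 with Segemehl, trimmed terminal T runs from unmapped reads, mapped these again and kept unique reads. Subread is also named in the submitters' processing notes. Per the study's methods, windows of 50 nt with at least 20 reads over the libraries were selected by a posterior probability of uridylation. The table used here nonetheless lists 11 windows with under 20 unique reads, the smallest with 7. The deposited values are raw counts of unique and of uridylated reads per window, summed by the authors over the libraries. The table holds 2686158 unique reads, of which 5716 lie in the 4 windows. Depth per library is not used here. How a read that spans 2 windows was counted, and whether starts count from 0 or 1, is not stated; starts were read as 1-based.

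Shares have 95% Wilson intervals and differences Newcombe intervals. Pairs were compared by Fisher's exact test with Benjamini-Hochberg adjustment (scipy 1.17.1). Copies were sought with blastn 2.17.0 and folds predicted with RNAfold 2.7.2. Sequence is from GRCh37, genes from GENCODE release 44 mapped to it, and RNA lengths from RefSeq. The functions were tested on simulated data. Named windows are all those of RNU12 and RNU4ATAC, RNU11, for each member the 2 other snRNA windows nearest in U+ fraction and in log10 unique reads, the lowest and highest of the other snRNA windows, and any gene of the lists; TEF, the Y RNA, TRA2B, the serine tRNA and the deepest RNU2-2P window were named after their values were seen. The members and lists were chosen with earlier results of these data known.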

Additional observations from a re-analysis of the deposited data

How the results depend on the processing

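The counts are pooled, so leaving out a library was not possible and no paired or per-library fit was made. Of 50 alternative values, 32 kept their direction and stayed within the limits set for each result, including all U+ fractions as posterior means or with Clopper-Pearson intervals. Joining the adjoining RNU12 windows past the 3′ end gave a U+ fraction of 29.96% with no read shared, against 27.9% and 47.2% for the windows apart, and 27.9% with the smaller window wholly shared. The second of these windows minus U4atac, 11.97 points apart, then became -5.28 points (adjusted p = 0.0273 by Fisher's exact test) or -7.29 points (adjusted p = 0.00229), because the joined window takes its value from the deeper one. The other 5 tested pairs with a downstream window kept their direction and an adjusted p under 0.05; the 3 tested pairs without one had no alternative.

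Places among other snRNA windows depended on which windows were compared. With U6 genes included, the share of windows below a member was 29.6% for the U12 5′ window (59.1% without them), 9.26% for the first downstream window and for U4atac (22.7% each), and 16.7% for the second downstream window (36.4%). Among the 4 windows in genes without a pseudogene symbol, it was 50% for the first downstream window and U4atac and 75% for the second. A frequency over 0.5 in place of 0.25 left 1 in place of 4 members and 10 in place of 17 other snRNA windows called. With starts read as 0-based, 1 window in place of 2 holds mature base 1, since the first RNU12 window then starts at base 2. Folding with 50 nt on either side changed the share of other windows with a weaker fold to 13.6% from 68.2% for the U12 5′ window, to 81.8% from 31.8% for the first downstream window and to 18.2% from 72.7% for U4atac. Depth limits U4atac and the second downstream window most, with 437 and 358 reads.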
